A study of Mus musculus with 8 samples.

Results

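Chromatin accessibility was examined around 8 genes of the PPAR and RXR system: Pparg, Ppara, Ppard, Rxra, Rxrb, Ppargc1a, Ppargc1b and Ncor1. A peak was counted for a gene when its centre lay inside the GRCm38 span of that gene or within 50 kb of it. This gave 171 of the 134407 deposited peaks, with 9 for Pparg, 18 for Ppara, 38 for Ppard, 22 for Rxra, 17 for Rxrb, 16 for Ppargc1a, 15 for Ppargc1b and 36 for Ncor1. Of these, 62 lay inside the gene and 109 outside it, and 78 were nearer to another protein-coding gene, which is named for some of them. The peaks are those of an ATAC-seq study, in which the Tn5 transposase cuts open chromatin and leaves sequencing adapters there. All libraries came from wild-type (WT) mouse embryonic stem cells of the established E14 line, grown on gelatin in serum and LIF, and each was made from 50000 live cells. The control group has 4 libraries without the drug, and the paused group has 4 libraries from cells that were held in INK128, which blocks the mTOR kinase, at 200 nM over 24 h, a treatment used to induce a state resembling developmental pausing. No label says whether the 4 libraries of a group came from separate cultures, so that p-values measure the spread between these libraries, which may be technical.

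The PPARs are nuclear receptors that are activated by fatty acids and their derivatives. Each binds DNA as a pair with an RXR receptor, at direct repeats of the half-site AGGTCA with 1 base between them. PPARα drives fatty acid oxidation in liver and other tissues, PPARδ is expressed in most tissues, and PPARγ is the master regulator of fat cell formation. Transcription of Pparg from an upstream start gives the widely expressed form of the protein, and a start farther downstream gives a form found mainly in fat cells. PGC-1α and PGC-1β, encoded by Ppargc1a and Ppargc1b, are coactivators known for raising mitochondrial gene expression, and NCoR1 is the scaffold of a corepressor complex with the deacetylase HDAC3.

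The sequences at the start sites are shown first, because for 5 of the 8 genes a peak lay within 1 kb of a listed start. RefSeq (GRCm38.p6) start windows, from 250 bases before to 50 after a start, were at hand for 7 of the 8 genes, 12 windows in all. The windows of the 3 listed Pparg starts are printed because the strongest peak inside the gene lay between the first and the second, while the table has no peak near the third. Capitals mark the half-site AGGTCA on either strand.
Pparg first start, chr6:115360894-115361193, + strand: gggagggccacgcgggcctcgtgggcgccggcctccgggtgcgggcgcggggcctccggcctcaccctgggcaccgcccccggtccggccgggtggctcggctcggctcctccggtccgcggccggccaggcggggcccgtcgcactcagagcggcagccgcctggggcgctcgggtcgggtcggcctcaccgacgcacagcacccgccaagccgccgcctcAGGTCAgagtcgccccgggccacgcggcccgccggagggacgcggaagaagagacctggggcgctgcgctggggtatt
Pparg second start, chr6:115362099-115362398, + strand: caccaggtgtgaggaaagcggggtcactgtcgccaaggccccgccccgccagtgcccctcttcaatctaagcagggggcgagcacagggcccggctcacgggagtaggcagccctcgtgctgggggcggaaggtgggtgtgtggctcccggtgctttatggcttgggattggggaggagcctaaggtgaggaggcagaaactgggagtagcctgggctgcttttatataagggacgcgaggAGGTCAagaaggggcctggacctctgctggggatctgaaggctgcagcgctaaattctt
Pparg downstream start, chr6:115421816-115422115, + strand: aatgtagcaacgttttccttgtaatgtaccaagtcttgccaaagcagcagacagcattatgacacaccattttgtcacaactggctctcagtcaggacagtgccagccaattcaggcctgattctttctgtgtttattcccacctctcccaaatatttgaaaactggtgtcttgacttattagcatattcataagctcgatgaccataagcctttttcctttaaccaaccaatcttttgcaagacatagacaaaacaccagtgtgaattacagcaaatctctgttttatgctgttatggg

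The half-site AGGTCA, searched on both strands, occurred in 3 of the 12 windows, the first and second of Pparg and the second of Rxra, and in 16.3% of 32851 RefSeq start windows of the same length. The direct repeat of this half-site with 1 base of any kind between, whose matches also hold the half-site, occurred in 0 of the 12 windows and in 0.0396% of all windows. A match is a description of the letters only. The first 2 Pparg windows were rich in G and C, with 80.3% and 62.7%, against 40.3% in the third and a mean of 53.8% over all windows.

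Peaks overlapped 3 of the 12 windows, those of Ppard, Ppara and the upstream start of Ncor1. The Ppard and Ncor1 windows are printed because most of each lies under a peak whose values are given below. Here capitals mark the bases inside the deposited peak, 201 for Ppard and 196 for Ncor1; the Ppara window shared 7 bases with its peak.
Ppard start, chr17:28232504-28232803, + strand: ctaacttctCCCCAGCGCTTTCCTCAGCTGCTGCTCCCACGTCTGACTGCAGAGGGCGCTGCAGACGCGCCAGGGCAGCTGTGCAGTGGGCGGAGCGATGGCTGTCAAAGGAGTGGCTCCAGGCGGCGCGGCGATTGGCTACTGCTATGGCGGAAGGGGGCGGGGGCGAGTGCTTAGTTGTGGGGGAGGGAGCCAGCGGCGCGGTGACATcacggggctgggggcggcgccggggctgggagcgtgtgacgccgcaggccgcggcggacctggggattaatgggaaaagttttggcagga
Ncor1 upstream start, chr11:62457283-62457582, - strand: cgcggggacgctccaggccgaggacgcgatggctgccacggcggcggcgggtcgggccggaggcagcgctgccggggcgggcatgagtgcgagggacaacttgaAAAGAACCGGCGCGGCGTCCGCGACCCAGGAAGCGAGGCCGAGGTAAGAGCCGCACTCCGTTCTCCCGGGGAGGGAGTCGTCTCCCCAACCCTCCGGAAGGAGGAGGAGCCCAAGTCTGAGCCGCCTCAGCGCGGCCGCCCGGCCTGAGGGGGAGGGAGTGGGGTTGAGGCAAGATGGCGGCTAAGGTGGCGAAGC

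The deposited values are reads per peak scaled by 1 factor per library, called scaled reads here. All peaks are 201 bp wide, so that levels of different peaks can be compared. The reads in peaks ranged from 4434037 to 21161767 per library, the highest in control replicate 1, and 1 read was worth between 0.346 and 1.69 scaled reads. The summed scaled reads over all peaks were between 7315541 and 7653989 in control and between 8062921 and 8640948 in paused libraries. As a check of the cell type, 8 of 10 embryonic stem cell marker genes had a peak within 1 kb of a gene end, Pou5f1 and Tdgf1 having none, and the summed value of the list was between 1240 and 1328 in control and between 1440 and 1573 in paused libraries. Gene-end peaks were also found for 4 of 6 fat cell genes (sums of 260 to 290 and 310 to 335; none at Adipoq and Cidec), 5 of 8 fibroblast genes (419 to 511 and 498 to 554; none at Col3a1, Lum and Postn) and 4 of 7 extraembryonic endoderm genes (424 to 483 and 495 to 589; none at Gata4, Foxa2 and Dab2). Most genes of every list had such a peak, and the share of all genes with one was not counted, so that the check does not tell these cell types apart. An open gene end is not expression, and the part of other cells in the results was not tested.

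Most of the PPAR and RXR chromatin did not pass the test for a change in paused cells. Of the 171 peaks, 164 had a mean of at least 10 scaled reads and were tested with limma-trend on log2(value + 1), and a peak was called when its Benjamini-Hochberg adjusted p over all 127402 tested peaks was under 0.05. By this rule 9 peaks were higher and 3 lower in paused cells, 7.32% of the 164, where 13.9% of all tested peaks were called (11.0% higher and 2.91% lower). The called peaks lay in the regions of Ncor1 (4), Ppara (2), Rxra (2), Pparg (1), Ppard (1), Rxrb (1) and Ppargc1b (1), and none in that of Ppargc1a (1 at an unadjusted p below 0.05). The change of the median member peak was 0.04 on the log2 scale, against 0.10 for the median of all tested peaks, and single changes are to be read against that shift. In such bulk libraries a change in the share of cells with an open site and a change in openness per cell cannot be told apart. All 12 called peaks lay away from the listed starts of the member gene they were counted for, or, for Ppargc1b, from its gene ends. Distances to the starts of other genes were not measured, and the called peak past the end of Ppara lay 38 bp from Cdpf1. The 4 paused values and the 4 control values did not overlap for 12.8% of the member peaks, 17 with the paused libraries higher and 4 with them lower, against 17.4% of all tested peaks (13.0% higher and 4.36% lower).

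**Figure D1:**
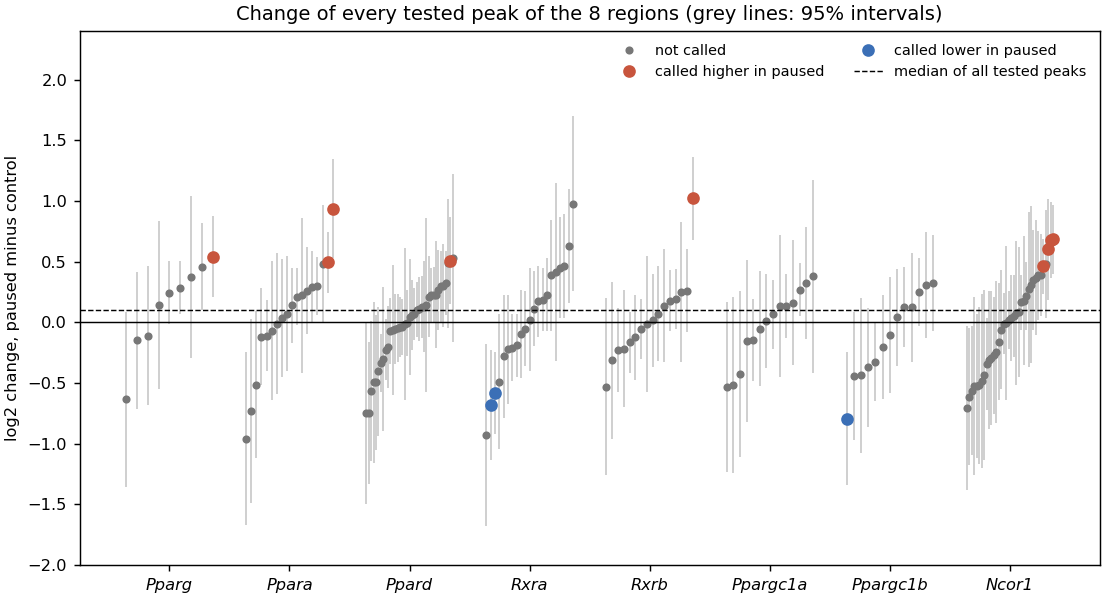
Log2 change (paused minus control, log2(value + 1) scale) of the 164 tested peaks, sorted within each gene, with 95% intervals from limma-trend as grey lines. Called peaks are large and coloured, 9 higher and 3 lower, and the dashed line is the median of all tested peaks, 0.10.

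The balance of higher and lower calls depended on both the scaling and the test. limma-trend after TMM rescaling called 6 member peaks higher and 5 lower (10.1% of all tested peaks were called). edgeR's quasi-likelihood test of the recovered reads called 9 higher and 7 lower with the deposited factors (16.5% of all), and 6 higher and 9 lower with TMM scaling (12.7% of all). A loess correction of the values for peak strength, before limma-trend, gave 5 higher and 6 lower (8.6% of all). In the authors' deposited table, 8 of the 171 peaks have an FDR under 0.05 (11.0% of all peaks do), and all 8 are among the 12 called here. The values are the same, so that this is no independent support.

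The Pparg region held few peaks, and 1 of the 9 tested was called higher (11.1%, near the 11.0% of all tested peaks called higher). Inside the 129526 bp of the gene lay 2 peaks, 1.54 per 100 kb, while the median of 4945 genes of at least 50 kb was 5.49 per 100 kb (quartiles 2.68 and 10.4). Another 3 peaks lay outside with Pparg as the nearest gene, and 4 lay past the far end of the gene and nearer to another gene.

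The peak that rose lay 25147 bp before the gene (chromosome 6, 115335632 to 115335832), with no other gene nearer. Its scaled reads were 43.9, 51.4, 35.6 and 45.6 in control replicates 1 to 4 in that order, as throughout, and 62.3, 64.7, 55.9 and 74.98 in the paused replicates. Every paused library was above every control library, and the mean went from 44.1 ± 6.53 to 64.5 ± 7.95 (SD, n = 4; 1.46 times). On the log2 scale the rise was 0.54 (SE 0.17, 95% interval 0.21 to 0.88, limma-trend adjusted p = 0.0242). This call was close to the threshold: it held under 9 of 18 alternatives, with adjusted p from 0.0141 to 0.237. It was lost under every rescaling of the values (TMM 0.0806, DESeq2 size factors 0.0815, loess 0.139), in edgeR with TMM (0.0556) and DESeq2 (0.237), and without control replicate 1 (0.0545), control replicate 3 (0.0869), paused replicate 2 (0.0508) or paused replicate 4 (0.1003).

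The peak at the start of Pparg (chromosome 6, 115361692 to 115361892) lay 648 bp after the first listed start and 557 bp before the second, between the first 2 windows printed above. It was stronger than 88.5% of all peaks. The control libraries gave 112, 128, 130 and 101 scaled reads, and the paused libraries 156, 118, 158 and 129. Paused replicates 1 and 3 lay above all controls, while replicates 2 and 4 lay within the control range. The log2 change of 0.25 (SE 0.13) had a 95% interval from -0.02 to 0.51 and did not pass the test (limma-trend adjusted p = 0.207), nor did it under any of 18 alternatives (0.124 to 0.877). At the third listed start, that of the transcript beginning 60922 bp after the first, the nearest peak of the table was 59827 bp away. That peak (115481793 to 115481993), the other one inside the gene, was weak, with 7.35 to 14.9 scaled reads in control and 9.46 to 17.1 in paused libraries. Its log2 change was 0.14 (SE 0.34, limma-trend adjusted p = 0.824), and its sign turned in edgeR, in DESeq2 and without control replicate 4 or paused replicate 3.

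Of all tested peaks 13.0% separated the groups with the paused libraries higher. The Pparg region, with only 9 peaks, had 3 of this kind. Beyond the far end of Pparg, 2 of these separated the groups without passing the test. The first, 9340 bp past the gene (115499644 to 115499844), had 45.6, 41.8, 44.0 and 29.4 scaled reads in control and 49.6, 59.9, 60.5 and 50.4 in paused libraries. Its log2 change was 0.46 (SE 0.18, limma-trend adjusted p = 0.0753), and no alternative called it. The second was the strongest peak of the region (115539045 to 115539245), 48741 bp from Pparg and nearer to another gene. Its control libraries were close together, at 207.8, 207.8, 208.3 and 211.6, and the paused libraries stood at 231, 257, 282 and 251, above all of them. The log2 change was 0.28 (SE 0.11, limma-trend adjusted p = 0.0699), and 3 of 18 alternatives called it.

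The other 4 peaks of the Pparg region were weak and their groups overlapped. The peak 16331 bp before the gene (115344448 to 115344648) had means of 13.8 and 18.3 in control and paused libraries, with a log2 change of 0.37 and an SE of 0.33. The 3 remaining peaks, past the far end of the gene, had log2 changes of -0.15, -0.11 and -0.64, with SE from 0.28 to 0.36. The last of these, the most negative change of the region (115536430 to 115536630), had 12.8 to 17.9 scaled reads in control and 5.86 to 17.4 in paused libraries. These 4 peaks rest on 4 to 50 reads per library, and limma-trend gave them adjusted p from 0.237 to 0.837.

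**Figure D2:**
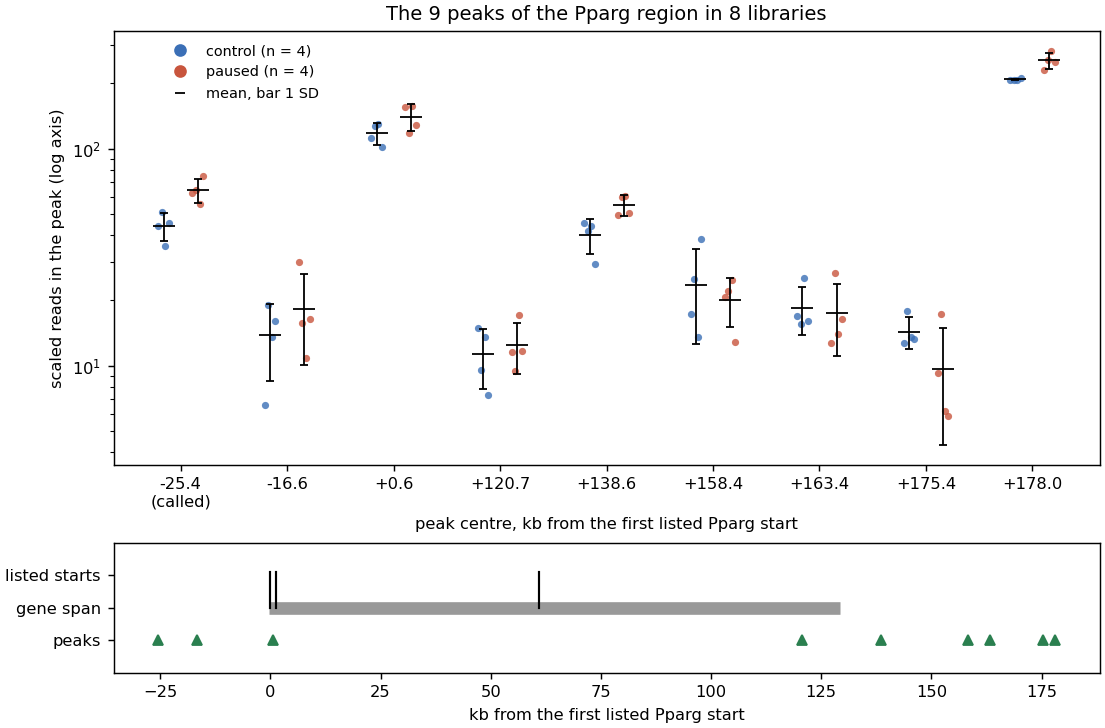
Upper panel: scaled reads (log axis) of the 9 peaks of the Pparg region in each library, with the mean and 1 SD, labelled by the distance of the peak centre from the first listed start. Lower panel: the gene span, the 3 listed starts and the peaks on the same distance scale; of all 9 peaks, the leftmost passed the test, with paused libraries at 55.9 to 74.98 and control libraries at 35.6 to 51.4.

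No peak nearest to a start was called for any of the 8 genes, where 13.9% of all tested peaks were called. These 8 peaks are too few to set their share apart from that. Ordered by control level, these peaks stood at 398 ± 74.3 scaled reads for Ncor1, 170 ± 25.9 for Ppara, 118 ± 13.7 for Pparg, 112 ± 10.8 for Rxra, 110 ± 11.2 for Ppard, 106.5 ± 18.4 for Ppargc1b, 62.1 ± 8.84 for Rxrb and 22.4 ± 6.62 for Ppargc1a (SD, n = 4). Pparg, Rxra, Ppard and Ppargc1b did not differ in level beyond their spread, while the steps to Ncor1, Ppara, Rxrb and Ppargc1a were larger than it. Within 1 kb of a listed start lay 5 of these peaks. For Ppargc1b, which has no start window here, the peak was 595 bp from an end of the gene. The peaks of Rxrb and Ppargc1a were 3324 bp and 14883 bp away.

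In paused cells the start peaks had log2 changes between -0.23 and 0.30, positive for 6 of 8, where 61.3% of all tested peaks had a positive change. For Ppara the control libraries gave 167, 207, 163 and 145 scaled reads and the paused libraries 233, 192, 206 and 203, a log2 change of 0.30 (SE 0.12, limma-trend adjusted p = 0.0859). The Ppara groups overlapped only through control replicate 2, and without that library the change was 0.39 with an adjusted p of 0.0259. This was the one alternative of 18 that called it; in the other 17 it was not called, with a change of 0.09 and an adjusted p of 0.676 after loess correction. At Ncor1 the change was 0.17 (95% interval -0.06 to 0.39), at Rxra 0.19 (-0.07 to 0.45) and at Ppargc1b 0.25 (-0.03 to 0.53). At Ppard, whose peak covers the start printed above, the means were 110 ± 11.2 and 110 ± 15.0 (SD, n = 4), with a 95% interval of the log2 change from -0.27 to 0.26. After loess correction the sign turned at Ncor1 and Rxra.

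**Figure D3:**
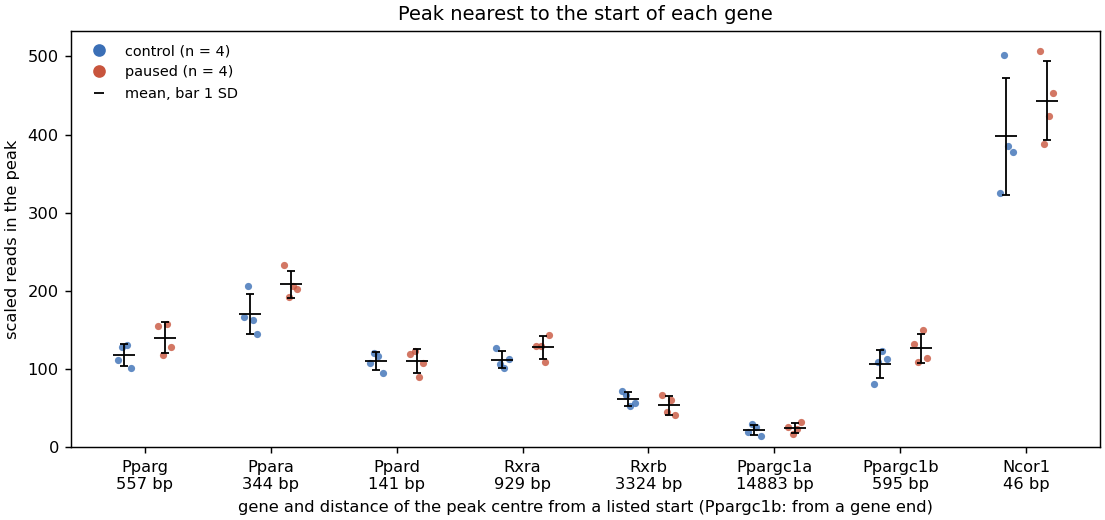
Scaled reads in each library at the peak nearest to the start of each gene, with the mean and 1 SD; the distance from a listed start (for Ppargc1b from a gene end) stands under the gene. The levels run from 22.4 (Ppargc1a) to 398 (Ncor1) in control libraries, and the groups overlap at every gene.

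The PPARα gene Ppara carried the called member peak with the second largest log2 rise. It lay inside the gene, 59931 bp after the listed start and 11144 bp from the far end of the span (chromosome 15, 85795607 to 85795807). Control libraries gave 26.6, 21.5, 25.4 and 29.4 scaled reads and paused libraries 35.8, 59.9, 46.6 and 62.1, with no overlap. On the log2 scale this was a rise of 0.94 (SE 0.20, limma-trend adjusted p = 0.00144), and all 17 alternatives that tested the peak called it, with changes from 0.83 to 1.09. A stronger peak, 4884 bp past the gene and 38 bp from Cdpf1 (85811635 to 85811835), went from 130 ± 21.98 to 181 ± 9.13 (SD, n = 4). Its paused libraries, at 172 to 190, were all above the controls, at 110 to 149.9. This log2 change of 0.49 (SE 0.12, limma-trend adjusted p = 0.00606) lost its call after loess correction (0.29, adjusted p = 0.129) and in DESeq2 (adjusted p = 0.135). The 2 calls were 11.1% of the 18 tested peaks, near the 11.0% of all tested peaks called higher. The other 16 peaks of the region, 9 of whose 18 peaks were nearer to Ttc38, Pkdrej or Cdpf1, did not pass. The lowest change among them, -0.96 (limma-trend adjusted p = 0.0612), belonged to a weak peak 16888 bp outside the gene, with means of 17.3 and 9.14.

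Ppard, the gene of PPARδ, was the most densely open of the 8 genes. Its 68716 bp held 16 peaks, 23.3 per 100 kb, a density above that of 98.0% of genes of at least 50 kb. None of these 16 passed the test. The strongest of them (chromosome 17, 28260238 to 28260438) had 120 ± 7.02 scaled reads in control and 131 ± 24.3 in paused libraries (SD, n = 4; log2 change 0.11, 95% interval -0.16 to 0.38). Of 37 tested peaks in the region 1 was called, 2.70% against 13.9% of all tested peaks (11.0% called higher). It lay 3929 bp past the gene (28305298 to 28305498), with control libraries at 55.3, 54.9, 28.8 and 45.6 and paused libraries at 65.8, 66.3, 62.1 and 62.1. The log2 change was 0.51 (SE 0.18, limma-trend adjusted p = 0.0491), and 14 of 18 alternatives did not call it, among them each fit without control replicate 3 or 4 or without any 1 of the paused replicates. Without control replicate 3, the lowest library, the change was 0.30 and the adjusted p 0.248. A peak on the other side of the threshold, nearer to Tead3, fell short at an adjusted p of 0.0507 (28341184 to 28341384; log2 change -0.33, 231 in control and 182 in paused libraries).

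RXRα, encoded by Rxra, is the RXR partner found in most tissues. All 22 peaks of its region had Rxra as the nearest gene, and 11 of the 21 tested had a positive change. Of all tested peaks 2.91% were called lower and 13.9% in either direction. The 2 calls of the Rxra region, 9.52% of the 21, were both falls. They were neighbours, 1454 bp apart, at 37960 and 39414 bp past the gene, on the side of Col5a1. The first (chromosome 2, 27801179 to 27801379) had 62.6, 54.9, 72.8 and 67.6 scaled reads in control and 36.9, 39.4, 54.3 and 41.0 in paused libraries. Each paused library was below every control library, and the log2 change was -0.58 (SE 0.17, limma-trend adjusted p = 0.0161). Of 18 alternatives 17 called it, and without control replicate 3 the adjusted p was 0.0571. The second (27802633 to 27802833) had 43.2, 37.0, 76.2 and 38.2 in control and 26.5, 22.1, 46.6 and 24.6 in paused libraries, with replicate 3 the highest in both groups. Its log2 change of -0.68 (SE 0.22, limma-trend adjusted p = 0.0369) was -0.45 without control replicate 3 (adjusted p = 0.217). The call was also lost in DESeq2 (0.0716) and without control replicate 1 (0.0555) or paused replicate 1 (0.0797), 2 (0.117) or 4 (0.107). These 2 peaks were chosen by the same test and lie close together, so that they are not independent of each other.

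Inside Rxra none of 8 peaks passed, where 13.9% of all tested peaks did. The strongest (27740352 to 27740552) had 130 ± 9.16 scaled reads in control and 114 ± 16.4 in paused libraries (SD, n = 4; log2 change -0.19, SE 0.13), and after loess correction it was called lower (-0.39, adjusted p = 0.0402). The largest positive change of the region, 0.98 at a weak peak near the end of the gene (27759228 to 27759428), separated the groups at means of 8.81 and 17.3 but had a limma-trend adjusted p of 0.0590.

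Rxrb, the gene of RXRβ, lies in the major histocompatibility complex among closely spaced genes. No peak lay inside its 6592 bp, and all 17 peaks of the region were nearer to a neighbour: 8 to Col11a2, 4 to H2-Oa, 3 to H2-K1 and 1 each to Ring1 and Slc39a7. The peak nearest to the start (chromosome 17, 34028388 to 34028588), inside the zinc transporter gene Slc39a7, had 71.9, 66.9, 52.5 and 57.3 scaled reads in control and 66.9, 45.7, 60.5 and 41.0 in paused libraries, which overlapped (log2 difference -0.23 with an SE of 0.17, limma-trend adjusted p = 0.392). Of 16 tested peaks in the region 1 was called higher, 6.25% against 11.0% of all tested peaks. This call was the largest rise of all member peaks. It lay 49178 bp from Rxrb and 4798 bp from H2-Oa (34087481 to 34087681), so that its place in the list rests on the 50 kb limit. Control libraries gave 38.0, 40.6, 28.8 and 41.2 scaled reads and paused libraries 71.5, 75.7, 65.2 and 93.7, a gap between the groups in which no library fell. The mean rose 2.06 times (log2 change 1.02, SE 0.17, limma-trend adjusted p = 6.66e-05), and all 18 alternatives called it.

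The coactivator genes showed 1 call between them. In the Ppargc1a region, 14 of 16 peaks were tested and 0 were called by limma-trend, against 13.9% of all tested peaks. Where 28.7% of all tested peaks had an unadjusted p under 0.05, 1 of the 14 did. This was the strongest peak of the region, singled out after its values were seen, 246 bp beyond the upstream end of the 661605 bp gene span (chromosome 5, 52115999 to 52116199). It gave 254, 294, 312 and 253 scaled reads in control and 347, 287, 369 and 340 in paused libraries, so that paused replicate 2 lay within the control range. The log2 change was 0.27 (SE 0.11, limma-trend adjusted p = 0.0883), and 1 of 18 alternatives called it. At the listed start of Ppargc1a, 548374 bp farther along, the nearest peak was 14883 bp away (51552742 to 51552942) and weak, with means of 22.4 and 25.0. The strongest peak inside the gene (52065149 to 52065349) had 82.4 ± 8.80 and 86.2 ± 8.18 scaled reads (SD, n = 4), and the sign of its log2 change of 0.07 turned under every rescaling and without control replicate 2.

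In the Ppargc1b region 13 of 15 peaks were tested and 1 was lower, 7.69% called against 13.9% of all tested peaks (2.91% lower). It lay inside the gene, 45264 bp from the nearer end (chromosome 18, 61336609 to 61336809), and was weak, with 28.7, 19.1, 23.7 and 29.4 scaled reads in control and 10.4, 12.6, 20.2 and 14.1 in paused libraries. Paused replicate 3 lay above control replicate 2, and the other paused libraries lay below all controls. The log2 change was -0.80 (SE 0.27, limma-trend adjusted p = 0.0429). It held under 9 of 17 alternatives and was lost after loess correction (0.0588), in DESeq2 (0.0792) and without control replicate 1 (0.136), 3 (0.0676) or 4 (0.119) or paused replicate 1 (0.111), 2 (0.0809) or 4 (0.0759).

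The corepressor gene Ncor1 had the most called peaks, 4 of 36 tested (11.1%), and all 4 rose. This share was near the 11.0% of all tested peaks called higher (13.9% in either direction). Inside the gene, 2 peaks rose by a like amount. The one 83042 bp after the downstream listed start (chromosome 11, 62355373 to 62355573) had 70.9, 64.5, 54.2 and 72.0 scaled reads in control and 96.9, 110.4, 110.2 and 103 in paused libraries. The one 9351 bp after that start and 28250 bp from the upstream end of the span (62429064 to 62429264) had 67.1, 62.1, 74.5 and 60.3 in control and 83.1, 123, 85.3 and 143 in paused libraries. Neither pair of groups overlapped, though the paused libraries of the second fell into a lower and a higher pair. The log2 changes were 0.68 (SE 0.14, limma-trend adjusted p = 0.000881) and 0.68 (SE 0.16, adjusted p = 0.00276), and all 18 alternatives called both.

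The other 2 calls lay outside Ncor1 and inside its neighbours. A strong peak 37525 bp upstream, inside Pigl, which encodes an enzyme of GPI anchor synthesis, had 237, 231, 278 and 238 scaled reads in control and 279, 339, 391 and 351 in paused libraries (62494839 to 62495039). The groups were separated by the narrow gap between control replicate 3 and paused replicate 1. The log2 change was 0.46 (SE 0.11, limma-trend adjusted p = 0.00417), and 0.25 after loess correction (adjusted p = 0.0819), the one alternative of 18 that did not call it. A weaker peak inside Ttc19 (62298987 to 62299187) had 33.2, 21.5, 23.7 and 29.4 in control and 40.4, 47.3, 32.6 and 44.5 in paused libraries, with paused replicate 3 just below control replicate 1. Its log2 change of 0.60 (SE 0.21, limma-trend adjusted p = 0.0436) was called under 5 of 17 alternatives, and not under any rescaling, in any test of recovered reads, or without control replicate 2, 3 or 4 or paused replicate 1, 2 or 4. The start peak of Ncor1, printed above and stronger than 99.7% of all peaks, overlapped between the groups, at 325 to 502 and 388 to 508 scaled reads.

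**Figure D4:**
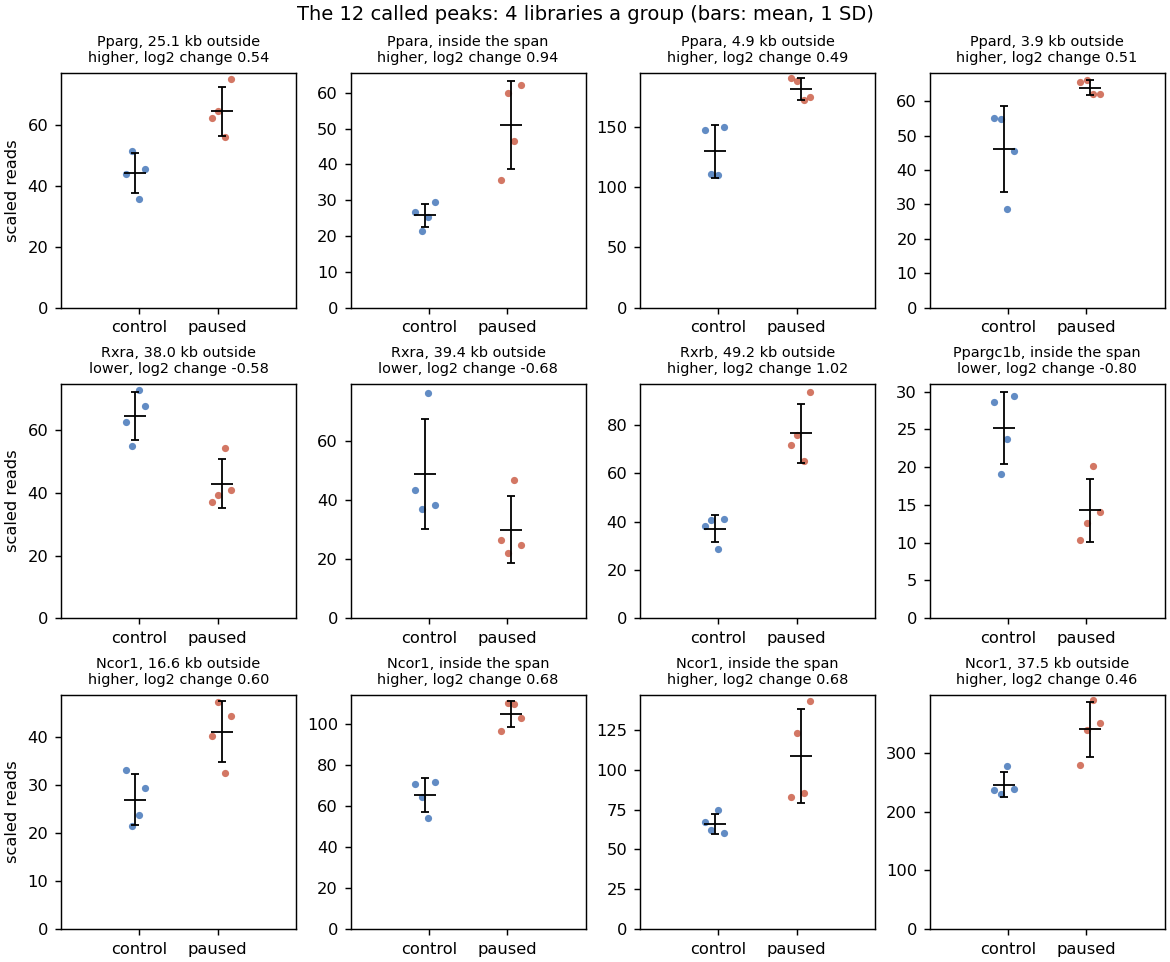
Scaled reads in each library at the 12 called peaks, with the mean and 1 SD; the title of each panel gives the gene, the distance from its span, and the log2 change. Groups do not overlap in 9 of the 12 panels, and the exceptions are the second Rxra peak, the Ppargc1b peak and the Ncor1 peak 16576 bp outside the gene. The peaks were chosen by the test of these same values, so that this separation is no added support.

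Of the 12 called peaks, 4 were called under every alternative that tested them: the peak inside Ppara, the 2 inside Ncor1 and the one near H2-Oa in the Rxrb region. Of the 9 rises, 3 lay inside a member gene and 6 outside, 4 of these nearer to another gene.

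The wider PPAR pathway was described through 45 further genes in 5 roles, by peaks inside them or within 50 kb with no other gene nearer. Of 442 tested peaks 35 were higher and 9 lower in paused cells, 9.95% against 13.9% of all tested peaks. With TMM rescaling the counts were 12 and 13 (10.1% of all tested peaks). The 12 target genes had 7 of 45 peaks higher and 0 lower, over 5 genes. This was 15.6% called, against 13.9% of all tested peaks (11.0% called higher). The median log2 change was 0.18 against 0.10. The smallest adjusted p belonged to a peak 854 bp from Pdk4, the kinase that restrains pyruvate oxidation (chromosome 6, 5482397 to 5482597). Its mean rose from 222 ± 33.0 to 322 ± 52.7 (SD, n = 4), by 0.53 on the log2 scale (SE 0.12; limma-trend adjusted p = 0.00250).

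Among 7 factors that act upstream of Pparg in fat cells, 11 of 114 peaks were higher and 1 lower, so that 10.5% were called, against 13.9% of all tested peaks. A peak inside Ebf1, an early factor of the fat and B cell lineages, rose from 86.2 ± 9.27 to 161 ± 13.3 (chromosome 11, 44864030 to 44864230; SD, n = 4), a log2 difference of 0.90 (SE 0.13; limma-trend adjusted p = 7.87e-06). The fall was at a weak peak inside Zfp423 (chromosome 8, 87765476 to 87765676), with 17.6 ± 3.56 and 7.99 ± 3.26 scaled reads (SD, n = 4). Its log2 change was -1.10, called under 10 of 17 alternatives.

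Coactivators had 12 of 122 peaks higher and 3 lower, so that 12.3% were called, near the 13.9% of all tested peaks. Inside Crebbp, the acetyltransferase CBP, a peak rose from 30.9 ± 5.66 to 70.5 ± 4.55 (chromosome 16, 4153745 to 4153945; SD, n = 4), a log2 difference of 1.18 (SE 0.17; limma-trend adjusted p = 1.35e-05). The lower coactivator peak with the smallest adjusted p, inside Ncoa1, was weak (chromosome 12, 4262289 to 4262489). Its scaled reads were 15.9 ± 3.55 in control and 6.80 ± 3.94 in paused libraries (SD, n = 4). The log2 change was -1.33 (limma-trend adjusted p = 0.0294), and 11 of 17 alternatives called the peak. Without 1 library the change ran from -1.59 to -0.79. Paused replicate 4 had 1.17 scaled reads, the value of 1 read there.

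Corepressors had 4 of 85 peaks higher and 4 lower, 9.41% against 13.9% of all tested peaks, with a median log2 change of -0.02 against 0.10. A peak 21687 bp from Sirt1, a deacetylase that docks with NCoR1, rose from 73.2 ± 11.3 to 122 ± 10.6 (chromosome 10, 63360622 to 63360822; SD, n = 4), a log2 difference of 0.74 (SE 0.14; limma-trend adjusted p = 0.000313).

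Partner receptors, the third RXR gene and those that share the RXRs, had 1 of 76 peaks higher and 1 lower, 2.63% against 13.9% of all tested peaks. The higher one lay inside Rarg (chromosome 15, 102235666 to 102235866), with 107 ± 26.3 and 140 ± 13.1 scaled reads (SD, n = 4; log2 change 0.41, limma-trend adjusted p = 0.0447; called under 7 of 18 alternatives). The lower one lay inside Rxrg (chromosome 1, 167608537 to 167608737), with 28.5 ± 6.62 and 16.4 ± 4.95 (SD, n = 4; log2 change -0.78, limma-trend adjusted p = 0.0385; called under 10 of 17).

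The pattern of the Pparg start peak over the 8 libraries was compared with that of 12077 gene-end peaks with a mean of at least 50. The most alike were those of Creg1, Slc1a2 and Lrp2, with Pearson correlations of log2(value + 1) of 0.98, 0.97 and 0.97. At Creg1 the control libraries gave 270, 313, 327 and 245 scaled reads and the paused libraries 353, 290.2, 368 and 319. A correlation over 0.9 was found for 96 of these peaks, and all share the libraries, their depth and their scaling.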

How the data were processed

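ATAC-seq was measured in 4 control and 4 paused libraries, grouped by the sample titles. Columns were matched to samples by library name. The submitters' processing notes list FastQC, Trim Galore, Bowtie2 2.4.1, MACS3 3.0.3, DiffBind 3.16.0 and build mm10 (GRCm38), without role or order. The deposited values are a signal: reads per peak over 1 factor per library, since 100% of values were whole multiples of 1 step (within 0.006). The log2 values, p-values and FDR deposited by the authors are those of their own comparison. The number of unused per-sample columns was 0.

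limma-trend (limma 3.58.1, R 4.3.3) was fitted to log2(value + 1) of the 127402 peaks with a mean of at least 10, which understates changes of weak peaks. Alternatives were edgeR 4.0.16 (quasi-likelihood) and DESeq2 1.42.0 on recovered reads, other scalings, pseudocounts, filters and windows, a replicate block, and each library left out. The edgeR test with TMM called 16187 peaks. The fits were tested on simulated data. Precision follows the reads in peaks, 4434037 to 21161767 per library. The lowest chi-square per degree of freedom between libraries of a group was 1.09, so that all were kept.

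Spans of 21887 protein-coding genes and start windows are from RefSeq GRCm38.p6. Exons and introns were not analysed here. Ppargc1b had no start window. Printed with every library's value were called peaks, start peaks and, for Pparg, the extreme changes, and with group means the strongest peak inside a gene and, per pathway role, the call with the smallest adjusted p in each direction. Of these, 1 lower corepressor call is not reported here, nor are the names of some genes. The members and lists were chosen with earlier results of these data known.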

Additional observations from a re-analysis of the deposited data

Results flagged for a closer look

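In 80 groups of 4 values (40 named peaks, control and paused), 6 had 1 library whose gap to the next, relative to the range of the group, exceeded the 95% limit of Dixon's test. Chance alone exceeds it in about 1 of 20 groups. All 6 were control libraries at their highest. In the Pparg region, control replicate 3 had 25.4 scaled reads at the peak starting at 115524454 (others 15.5 to 16.9), control replicate 2 had 17.9 at that starting at 115536430 (others 12.8 to 13.6), and control replicate 4 had 211.6 at that starting at 115539045 (others 207.8 to 208.3). Control replicate 3 also stood apart at the second called Rxra peak, with 76.2 against 37.0 to 43.2, and at the Ncor1 peak inside Pigl, with 277.7 against 231 to 238. The Ebf1 peak had 99.9 in control replicate 4 against 79.5 to 83.0.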

How the results depend on the processing

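Of 705 values of the 40 named peaks under alternatives, 588 kept their sign and side of the threshold, 87 lost a call, 6 gained one and 24 changed sign.

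For the 8 regions, 9 higher and 3 lower in the main test became 5 higher in DESeq2, after loess correction, within 10 kb of the genes, or without peaks nearer to another gene. DESeq2 called 4.55% of all tested peaks, where the main test called 13.9%, and its counts below are to be read against that share. For 3 kinds of fit the share of all tested peaks called was not counted. These were the fits without 1 library, with a mean of at least 50 and with DESeq2 size factor rescaling. Their counts, here and below, have no share beside them and are not a result about these genes. The lower count was 5 with TMM or DESeq2 size factor rescaling, 6 after loess correction, 9 in edgeR with TMM, 7 in edgeR with deposited factors and 1 within 10 kb. Leaving out 1 library gave 6 to 9 higher and 0 to 5 lower, with 0 lower in limma-trend without control replicate 3 (28 of either direction at an unadjusted p under 0.05) and 1 lower without paused replicate 1 or 4.

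For Pparg, the 1 call became 0 with both rescalings (3 peaks each at an unadjusted p under 0.05), after loess correction, in edgeR with TMM and in DESeq2 (1 each), and within 10 kb. It became 2 with a mean of at least 50, where fewer peaks are tested, and 0 to 2 without 1 library. No alternative gave a lower call there.

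For the other pathway genes, 35 higher became 12 with either rescaling, 10 after loess correction, 19 in edgeR with TMM, 9 in DESeq2 and 19 to 36 without 1 library, with 21 without control replicate 3 and 19 without paused replicate 4. The 9 lower became 20 in edgeR with TMM, 0 in DESeq2 (58 peaks of either direction at an unadjusted p under 0.05) and in limma-trend with a mean of at least 50 (56), and 2 to 7 without 1 library. The libraries differ in depth, so that 3 reads are 5.08 scaled reads in control replicate 3 and 1.04 in control replicate 1. Smaller windows and higher filters hold fewer peaks. The cause of the changes in these counts was not tested.

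The replicate block gave 13 higher and 4 lower in the 8 regions, 2 for Pparg, and 49 and 11 for the other genes. The share of all tested peaks called with the block was not counted, so that these counts have no share beside them. Same-numbered libraries correlated in their deviations from the group means by 0.0790, 0.0358, 0.133 and 0.0395, and the other pairs by -0.105 to 0.0703. Every library except replicate 2 of each group correlated best with its own number. Whether same-numbered libraries share more than a number was not tested.

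Sign changes of log2 values were as follows. At the Ppard start, -0.01 became 0.00792 in edgeR with deposited factors and -0.0713 to 0.0879 without 1 library. After loess correction the Ppard internal peak had -0.0905, and the start peaks of Rxra and Ncor1 -0.0113 and -0.0423. The Ppargc1a start peak ranged from -0.0154 (without control replicate 4) to 0.318. The strongest peak inside Ppargc1a had -0.0343 with TMM, -0.0354 with DESeq2 size factors, -0.116 after loess correction, -0.0165 in edgeR with TMM, -0.0274 in DESeq2 and -0.00536 to 0.118 without 1 library. In the Pparg region, the second internal peak had -0.110 in edgeR with TMM, -0.0129 with deposited factors, -0.0490 in DESeq2, and -0.0299 to 0.279 without 1 library. The peaks starting at 115519430 and 115524454 ranged from -0.365 to 0.111 and from -0.326 to 0.0448 without 1 library.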
